A study of Mus musculus with 2 samples.

Results

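The mitochondrially encoded RNAs comprise the 37 mouse genes whose symbols start with mt- in GENCODE M21, of 55450 genes in that annotation: 13 mRNAs, 2 rRNAs and 22 tRNAs. Their members among the small RNAs were all sequences of 18 to 40 nt that matched such a gene exactly, over the whole read, on either strand. There were 2468 of them among the 12118721 distinct sequences of the Tdrkh-/- library and 4427 among the 11808018 of the Tdrkh+/- library, 5878 in all. They carried 15448 of 60973266 reads in Tdrkh-/- and 15053 of 43172204 reads in Tdrkh+/-.

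The Tdrkh-/- library was made from 11-day-old mouse testes in which EIIa-Cre had removed exons 2 to 4 of both Tdrkh copies, with the start codon in exon 2. The Tdrkh+/- library came from testes of the same age with 1 copy removed, so neither library is wild type. Both groups stood on a C57Bl6/129 background, the Cre transgene was crossed out, and 2 knockout lines from separate founders existed, without a statement of which was sequenced. Each library pooled 5 pairs of testes, so no difference had a replicate check and no test was run: intervals are 95% exact ones that cover counting error only.

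Mitochondrial DNA is a small circle whose strands are both transcribed into long RNAs. tRNAs lie between most of the mRNAs and rRNAs, and cutting them out at both ends frees their neighbours, after which CCA is added to tRNA 3′ ends by an enzyme, since the DNA does not encode it. These RNAs are made inside the organelle, whereas Tdrkh, a Tudor and KH domain protein, sits on its outer surface, where piRNA precursors bound by PIWI proteins are trimmed to their final length. The mitochondrial RNAs therefore served as non-piRNA controls of read length.

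The following sequences, given 5′ to 3′ with GRCm38 positions, show the reads on which the levels below turn. Letters in capitals were added after the annotated 3′ end of a tRNA and are not part of the stated interval.
mt-Co1, chrM:5739-5774, plus strand, the most abundant mRNA read: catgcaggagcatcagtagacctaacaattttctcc
mt-Rnr2, chrM:1094-1114, plus strand, the first bases of the large rRNA: actaatcctagccctagccct
mt-Rnr1, chrM:229-256, plus strand, within the small rRNA: cgggactcagcagtgataaatattaagc
mt-Tl1, chrM:2705-2741, plus strand, a read from within a leucine tRNA: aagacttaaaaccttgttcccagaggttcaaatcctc
mt-Tv, chrM:1060-1089, plus strand, a read from within the valine tRNA: acccagaagatttcatgaccaatgaacact
mt-Tv, chrM:1058-1093, plus strand, with added bases: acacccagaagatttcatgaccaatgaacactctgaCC
mt-Tc, chrM:5228-5257, minus strand, from the 5′ end of the cysteine tRNA: ggtcttaaggtgatattcatgtcgaattgc
mt-Tg, chrM:9422-9457, plus strand, a read from within the glycine tRNA: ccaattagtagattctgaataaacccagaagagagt
mt-Tg, chrM:9424-9458, plus strand, with added bases: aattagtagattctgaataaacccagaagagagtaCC
mt-Te, chrM:14071-14108, minus strand, the glutamate tRNA with added bases: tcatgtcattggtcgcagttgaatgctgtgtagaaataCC
mt-Nd4, chrM:11496-11528, minus strand, the most abundant antisense read: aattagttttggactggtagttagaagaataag

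The excised part of Tdrkh gave 0 sense reads with Tdrkh-/- and 17 with Tdrkh+/-, counted over exons 2 to 4 of transcript ENSMUST00000166032.7 with sequences found in no other gene. The other exons had 290 reads in Tdrkh-/- and 476 in Tdrkh+/-. As a check of the tissue, the germ cell microRNAs Mir470 and Mir871 made up 7.45% and 4.78% of microRNA reads in Tdrkh-/-, against 5.35% and 4.73% in Tdrkh+/-. The meiotic Mir34c was at 0.00479% in Tdrkh-/- and 0.0232% in Tdrkh+/-. Of microRNAs known from other cells, the erythroid Mir451a was at 0.000804% in Tdrkh-/- and 0.000973% in Tdrkh+/-, whereas Mir486, also erythroid, was at 0.630% and 0.431%. Smooth muscle Mir143 was at 3.58% in Tdrkh-/- and 3.93% in Tdrkh+/-, Mir145a at 0.0183% and 0.0141%, and Sertoli cell Mir202 at 0.0318% and 0.0283%. The part of these differences in the results was not tested. Levels below are per microRNA read, of which Tdrkh-/- had 2486303 and Tdrkh+/- had 2363475, because microRNAs are made without the piRNA pathway.

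Reads per distinct sequence differed between the libraries. A mitochondrial sequence had a median of 4 reads in Tdrkh-/-, with 10.7% of sequences read once, and a median of 2 reads in Tdrkh+/-, with 39.7% read once. Nuclear structural RNA sequences, read once in 11.7% of cases in Tdrkh-/- and 32% in Tdrkh+/-, did likewise, whereas all sequences together were read once in 66.0% and 67.7% of cases in that order. Without molecular identifiers, copies of a molecule cannot be told from separate molecules, so the intervals are too narrow, and the part of this difference in the results was not tested.

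Mitochondrial mRNA fragments were about as frequent in both libraries, while rRNA and tRNA fragments were scarcer in Tdrkh-/-. Sense reads of the 13 mRNAs numbered 14139 in Tdrkh-/- and 12489 in Tdrkh+/-, which is 5687 and 5284 per 1000000 microRNA reads. Their ratio was 1.08 (1.05 to 1.10) per microRNA read but 0.802 per read listed and 0.487 per read of nuclear structural RNA, so its direction depends on the scale. Sense reads of the 2 rRNAs numbered 107 in Tdrkh-/- and 997 in Tdrkh+/-, with the ratio at 0.102 (0.0828 to 0.125). Those of the 22 tRNAs numbered 348 in Tdrkh-/- and 911 in Tdrkh+/-, with the ratio at 0.363 (0.320 to 0.411). The mRNAs thus held 96.9% of sense mitochondrial reads in Tdrkh-/- and 86.7% in Tdrkh+/-. Both scales other than microRNA reads lowered every level ratio, by 0.42 (log2) on the scale of reads listed and by 1.14 on that of nuclear structural RNA.

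rRNA fragments were few for RNAs that are abundant in cells. Per kilobase of gene they had 17 reads per 1000000 microRNA reads in Tdrkh-/- and 166 in Tdrkh+/-, against 499 and 463 for mRNAs and 93.2 and 257 for tRNAs in the same order. Whether rRNA and tRNA reads were removed from the deposited tables is not given in the sources used here.

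Gene by gene, the mRNAs lay within 2-fold between the libraries, and so did 2 tRNAs, mt-Tl1 and mt-Tm, while the other rRNAs and tRNAs with enough reads did not. Of the 37 genes, 21 had at least 50 sense reads over both libraries. Among these, 1 was at least 2-fold higher in Tdrkh-/- (background 15% of the 18093 genes with that many reads) and 5 were at least 2-fold lower (background 12.8% of the same genes). The higher gene was mt-Tg and the lower ones were mt-Rnr1, mt-Rnr2, mt-Tv, mt-Tc and mt-Tp, all rRNAs or tRNAs. All 13 mRNAs lay within 2-fold per microRNA read, with log2 ratios of -0.35 to 0.29 and a median of 0.01, beside a median of 0.06 over all genes. Per read of nuclear structural RNA, 14 of the 21 genes were at least 2-fold lower. That scale moves the log2 ratio of every gene by -1.14. It therefore takes the median over all genes, 0.06 per microRNA read, past the mark for 2-fold lower as well. The background of 12.8%, per microRNA read, therefore does not apply to this count, and none on this scale is given here. A further 8 genes, all tRNAs, had no exact sense read within the annotated gene in either library. Among these, mt-Th and mt-Tt had reads with bases added after the 3′ end, 80 and 50 in Tdrkh-/- against 102 and 48 in Tdrkh+/-. A few such reads came from mt-Tf, mt-Tw, mt-Td and mt-Tr, with 5, 4, 0 and 0 in Tdrkh-/- against 1, 7, 1 and 3 in Tdrkh+/-. None came from mt-Ts1 and mt-Tl2.

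**Figure D1:**
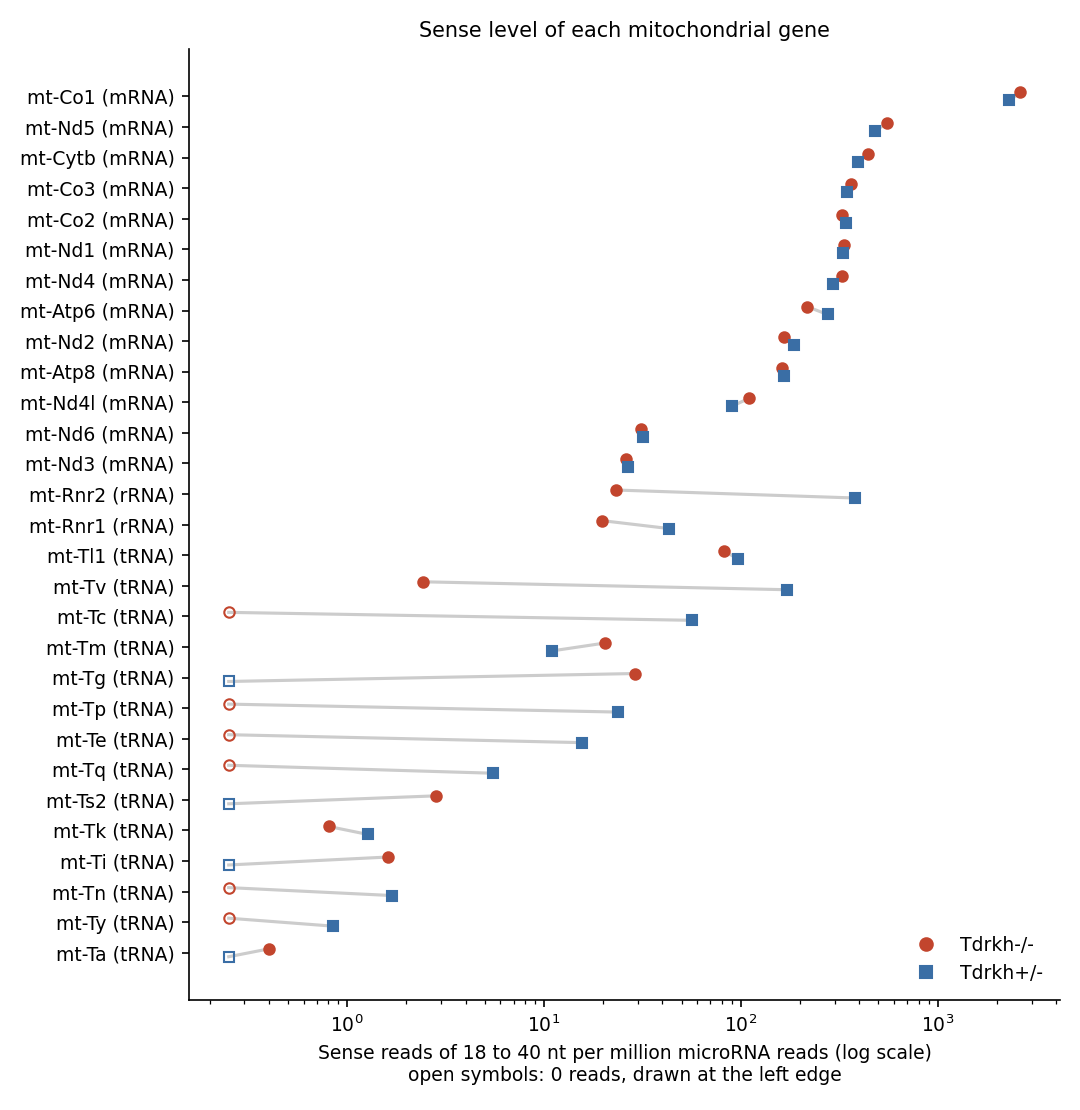
Sense reads of 18 to 40 nt per 1000000 microRNA reads (log scale) for each mitochondrial gene with such a read, Tdrkh-/- as circles and Tdrkh+/- as squares, 1 library each, with open symbols for 0 reads. The symbols of the 13 mRNAs nearly coincide, whereas mt-Rnr2 and several tRNAs lie far apart.

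Sequences of the cytochrome c oxidase mRNAs made up most of the sense mRNA reads in both libraries. mt-Co1, its largest catalytic subunit, had 6532 reads on the sense strand in Tdrkh-/- and 5480 in Tdrkh+/-, or 1700.45 and 1501 per kilobase and 1000000 microRNA reads, with a ratio of 1.13 (1.09 to 1.17). mt-Co2 had 811 reads in Tdrkh-/- and 805 in Tdrkh+/-, and mt-Co3 had 903 and 820, and the intervals of both ratios held 1, at 0.868 to 1.06 for mt-Co2 and 0.951 to 1.15 for mt-Co3. Per kilobase, mt-Co1 was higher than every other mRNA in both libraries, and mt-Atp8 was next, with 793 in Tdrkh-/- and 811 in Tdrkh+/-. Sequences found also in a nuclear gene made up 54.1% of mt-Co1 reads and all reads of mt-Co2, mt-Co3, mt-Atp6 and mt-Nd4l, so their source in the mitochondrion or in a nuclear copy cannot be told apart.

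The mRNAs of complex I, which passes electrons from NADH to ubiquinone, spread over a wide range of level. mt-Nd5 had 1378 reads in Tdrkh-/- and 1136 in Tdrkh+/-, with the ratio at 1.15 (1.07 to 1.25), and mt-Nd4 had 816 and 699, a ratio of 1.11 (1.0 to 1.23). mt-Nd1, whose sequences match no nuclear gene, had 828 reads in Tdrkh-/- and 779 in Tdrkh+/-, with the ratio at 1.01 (0.915 to 1.12). mt-Nd4l showed the highest mRNA ratio, 1.22 (1.02 to 1.47), on 274 reads in Tdrkh-/- and 213 in Tdrkh+/-. mt-Nd2, with 411 reads in Tdrkh-/- and 442 in Tdrkh+/-, was at 0.884 (0.771 to 1.01), the second lowest. mt-Nd3 was lowest in number, with 65 reads in Tdrkh-/- and 63 in Tdrkh+/-.

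Cytochrome b and the ATP synthase subunits had read numbers inside the range of the complex I mRNAs. mt-Cytb, the complex III subunit, had 1103 reads in Tdrkh-/- and 934 in Tdrkh+/-, with the ratio at 1.12 (1.03 to 1.23). mt-Atp6, a subunit of the proton channel of ATP synthase, had the lowest mRNA ratio, 0.786 (0.70 to 0.882), on 539 reads in Tdrkh-/- and 652 in Tdrkh+/-. mt-Atp8, whose reading frame overlaps mt-Atp6, had 402 reads in Tdrkh-/- and 391 in Tdrkh+/-. These per-gene directions hold per microRNA read, and all ratios fall below 1 per read of nuclear structural RNA.

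Read length showed the same agreement for the mRNAs. Their sense reads of 24 to 30 nt, the size of mature piRNAs, numbered 3320 in Tdrkh-/- and 3153 in Tdrkh+/-, with the ratio at 1.0 (0.953 to 1.05), and those of 31 to 37 nt numbered 6623 and 5562, a ratio of 1.13 (1.09 to 1.17). Their length averaged 32.8 nt for Tdrkh-/- and 32.5 nt for Tdrkh+/-, and the most frequent length was 36 nt in both, with 9.99% and 8.89% of reads. In nuclear protein-coding genes it averaged 32.3 nt for Tdrkh-/- and 28.6 nt for Tdrkh+/-, and the most frequent lengths were 32 nt and 27 nt. The mitochondrial mRNA fragments of both libraries thus lay at the long end of the range. Up to the 40 nt at which gel and tables end, 22.3% of them in Tdrkh-/- and 21.7% in Tdrkh+/- were of 38 nt or more.

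**Figure D2:**
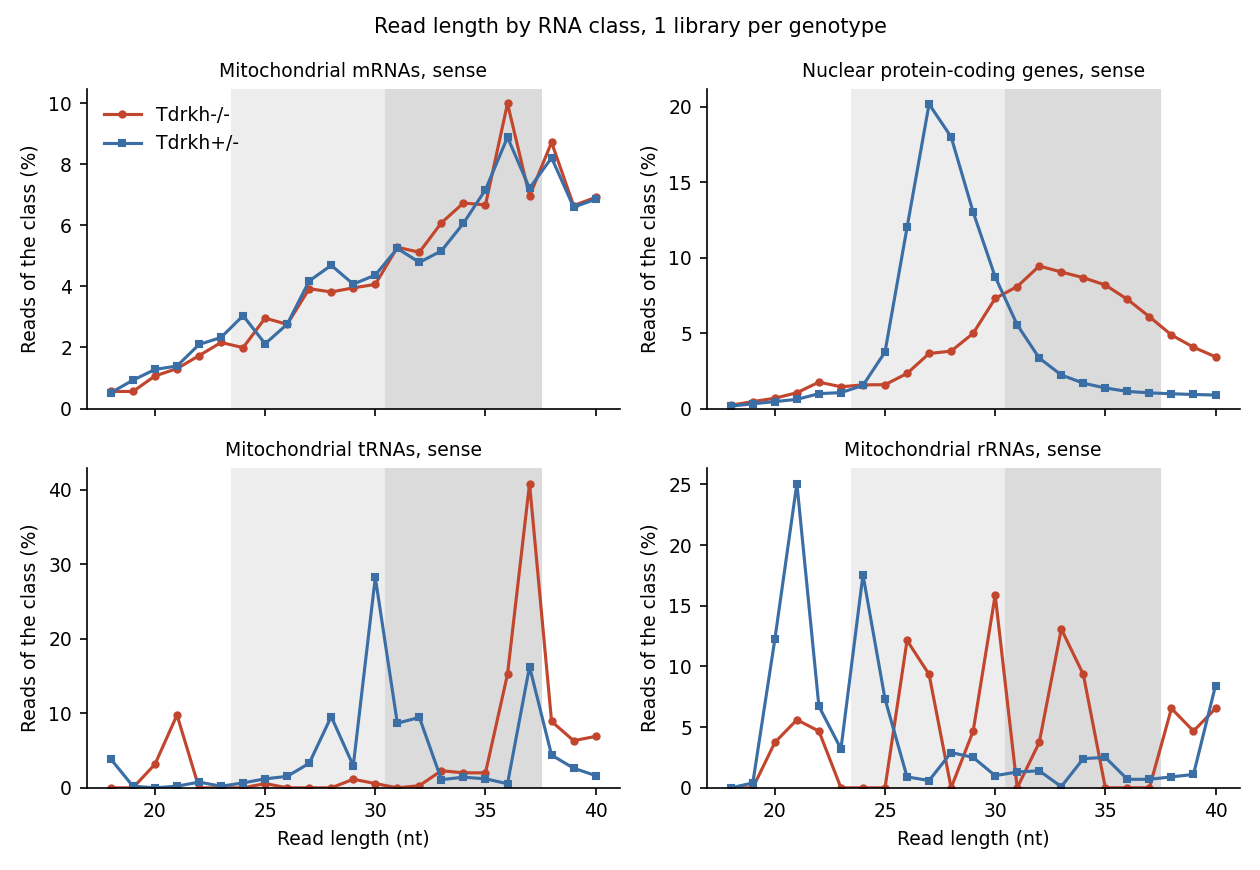
Share of sense reads (%) at each length (nt) for mitochondrial mRNAs, nuclear protein-coding genes, mitochondrial tRNAs and mitochondrial rRNAs, in Tdrkh-/- (circles) and Tdrkh+/- (squares), 1 library each. Light and dark bands mark 24 to 30 nt and 31 to 37 nt; the mitochondrial mRNA curves run together with a peak at 36 nt, whereas those of nuclear genes peak at 32 nt and 27 nt.

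The exchange of length classes was measured as the 31 to 37 nt reads per 24 to 30 nt read, Tdrkh-/- over Tdrkh+/-, which needs no scale between libraries. For mitochondrial mRNAs this quotient was 1.99 in Tdrkh-/- and 1.76 in Tdrkh+/-, an exchange of 1.13 (1.06 to 1.20). For nuclear protein-coding genes it was 2.25 in Tdrkh-/- and 0.212 in Tdrkh+/-, an exchange of 10.6, and all reads outside mitochondrial genes gave 10.4. Nuclear structural RNA, the other class made without PIWI proteins, gave 0.692 (0.674 to 0.710). Sequences of mitochondrial mRNAs found in no nuclear gene gave 1.09 (0.999 to 1.19) and those shared with a nuclear gene gave 1.15 (1.06 to 1.26), so both kinds lay near 1.

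Within single genes the exchange stayed within 2-fold for every mRNA with enough reads. Among the 12 mitochondrial genes with at least 50 reads in each length class, 1 was at least 2-fold higher in Tdrkh-/- (background 94.9% of 12356 genes) and 0 were at least 2-fold lower (background 0.372%). The 11 mRNAs ran from 0.787 in mt-Nd1 to 1.57 in mt-Atp6, with a median of 1.06 beside 8.05 over all genes. The interval lay above 1 in mt-Atp6 (1.12 to 2.20), mt-Atp8 (1.02 to 2.35) and mt-Co1 (1.13 to 1.37). mt-Nd6, with under 50 reads in a class, had 42 long and 14 short reads in Tdrkh-/- against 22 and 26 in Tdrkh+/-. The gene past 2-fold was mt-Rnr2, at 2.62 (1.16 to 5.71), which had 14 long and 21 short reads in Tdrkh-/- against 66 and 259 in Tdrkh+/-.

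**Figure D3:**
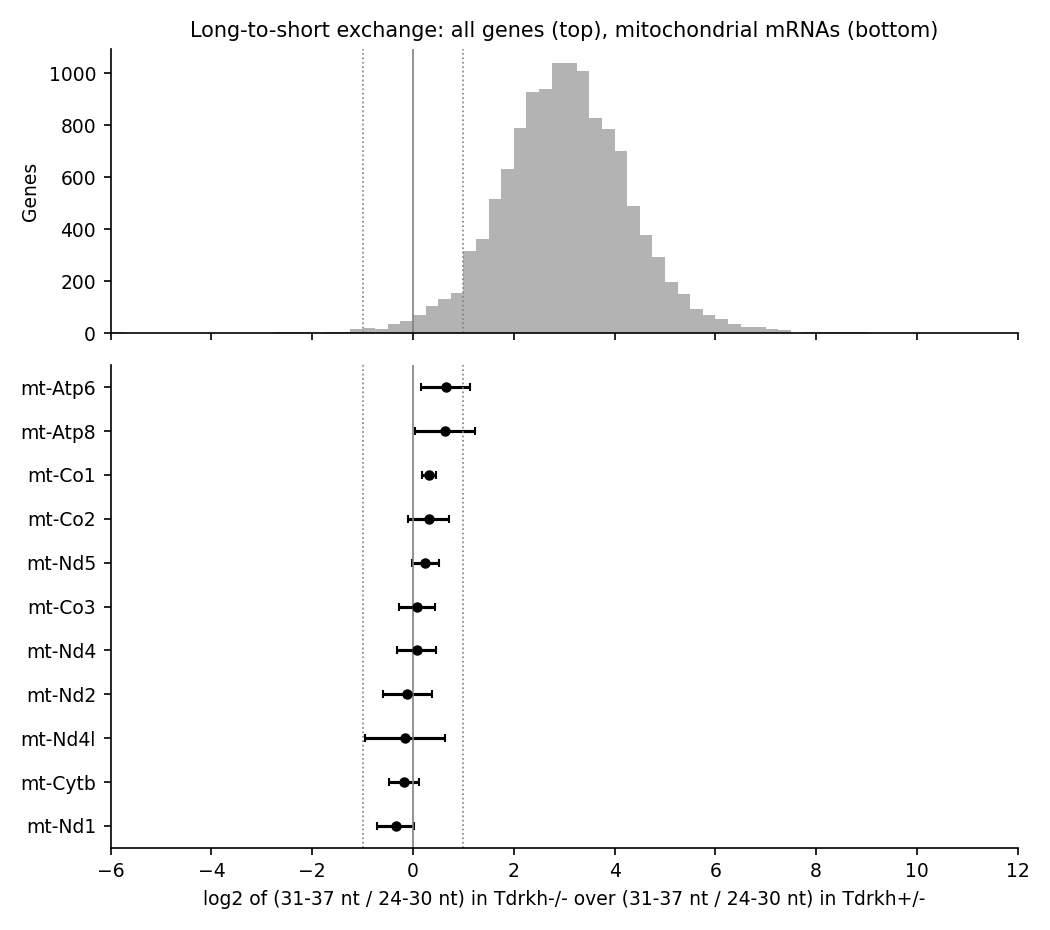
Exchange of 31 to 37 nt for 24 to 30 nt reads on the log2 scale, as numbers of genes in bins of 0.25 for the 12356 genes with at least 50 reads in each class (top; values past an end of the axis are in the end bin) and for 11 mitochondrial mRNAs with 95% exact intervals (bottom). Dotted lines mark 2-fold; on the linear scale the mRNAs lie between 0.787 and 1.57 and the median of all genes is 8.05.

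In exchange, nuclear genes that work in the same organelle lay near the other nuclear genes, while in level the oxidative phosphorylation genes had a median below that of all genes. Of 81 nuclear oxidative phosphorylation genes with enough reads, 79 had an exchange of at least 2-fold (background 94.9%), with a median of 8.28 beside 8.05 over all genes. The exceptions were Ndufa6 at 1.17 and Ndufc2 at 0.458. Cox4i1, a nuclear partner of mt-Co1, had 1188 long and 467 short reads in Tdrkh-/- against 776 and 3173 in Tdrkh+/-, an exchange of 10.4. All 22 measured genes for mitochondrial RNA handling were past 2-fold, against the same background, with a median of 6.80. Among them were Tfam, which packs mitochondrial DNA, at 6.74, and Slirp, which binds mitochondrial mRNAs, at 4.96. In level, 33 of 91 oxidative phosphorylation genes were at least 2-fold lower in Tdrkh-/- (background 12.8%) and 2 at least 2-fold higher (background 15%), with a median log2 ratio of -0.59 beside 0.06 over all genes. Of 25 RNA handling genes 4 were lower, a share near the background, and 0 were higher, with a median log2 ratio of 0.20.

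Of 2400 mRNA 5′ ends, 857 were found in both libraries, and no such number over all sequences is given here. Of 5228 distinct mRNA sequences, 981 were in both, or 18.8%, beside 4.97% of all sequences of the libraries. These carried 62% of mRNA reads in Tdrkh-/- and 49.1% in Tdrkh+/-, near the 57.2% and 51.3% of reads over all sequences. Sequences read once were a smaller share of mitochondrial sequences than of all sequences, so 18.8% and 4.97% are not like for like. The most frequent 5′ end lay 412 bases into mt-Co1, counting its first base as 1, with 651 reads in Tdrkh-/- and 526 in Tdrkh+/-. Of these, 62.1% in Tdrkh-/- and 61.6% in Tdrkh+/- were 36 nt long, the first sequence above, and 29.3% and 29.8% were 38 nt long. The next end, at base 355, had 408 reads in Tdrkh-/- and 333 in Tdrkh+/-. At base 1 of mt-Nd4l, its annotated start, there were 122 and 124 reads in the same order.

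**Figure D4:**
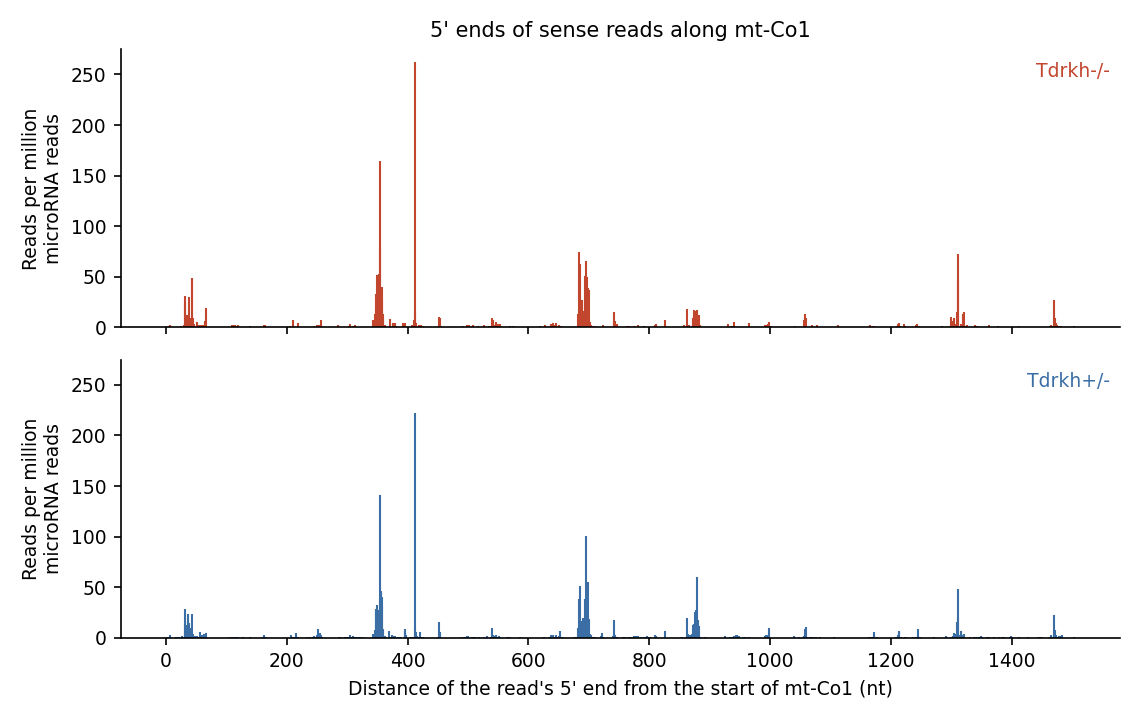
Reads per 1000000 microRNA reads by the distance of their 5′ end from the start of mt-Co1 (nt), Tdrkh-/- above and Tdrkh+/- below, 1 library each on the same axis. The highest line stands at base 412 in both libraries, and clusters at about the same places follow along the gene.

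Reads that began at the same base also had like lengths. At the 76 mRNA 5′ ends with at least 20 reads of 24 nt or more in each library, the median over ends of the mean read length was 34.2 nt for Tdrkh-/- and 34.3 nt for Tdrkh+/-. The difference within an end, Tdrkh-/- minus Tdrkh+/-, had a median of 0.03 nt, with quartiles of -0.98 and 0.54 nt, and 52.6% of ends were longer in Tdrkh-/-. At 75744 other 5′ ends the median difference was 2.49 nt, and 89.7% were longer in Tdrkh-/-.

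The base preferences of piRNAs were not found on the mRNA fragments. A U at the 5′ end, the mark of primary piRNAs, stood on 20.3% (18.9 to 21.7) of those of 24 to 30 nt in Tdrkh-/- and on 22.5% (21 to 23.9) in Tdrkh+/-, under the 30.1% of U in these genes. Among the distinct mRNA sequences of that size, each counted once, U came first in 27.8%, nearer to the share of gene bases. All library reads of that size had 75.7% in Tdrkh-/- and 82.8% in Tdrkh+/-. A was the most common first base over all lengths, with 43.5% in Tdrkh-/- and 42.2% in Tdrkh+/- against 32.6% of gene bases. The last base was C in 41.3% and 41.4% of reads in the same order, against 25.1% of gene bases. A at base 10, the mark of secondary piRNAs, stood on 31.4% of reads in Tdrkh-/- and 30.1% in Tdrkh+/-, near its share of gene bases.

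Antisense reads were a small part of the total. They numbered 854 in Tdrkh-/- and 656 in Tdrkh+/-, with the ratio at 1.24 (1.12 to 1.37) per microRNA read and 0.922 on the scale of reads listed. The genes with the most were mt-Nd5 with 286 reads in Tdrkh-/- and 229 in Tdrkh+/-, mt-Nd4 with 147 and 120, and mt-Nd6 with 92 and 78. mt-Nd6 is the only mRNA encoded on the minus strand and had 77 reads on its own strand in Tdrkh-/- and 75 in Tdrkh+/-, fewer than its antisense reads in both libraries. By strand of the chromosome, 94.6% of reads in Tdrkh-/- and 94.0% in Tdrkh+/- were plus-strand RNA. Opposite reads of 24 to 30 nt that overlap by 10 nt at their 5′ ends, as secondary piRNAs do, made up 0% of overlapping pairs in Tdrkh-/- and 1.39% in Tdrkh+/-, where an equal share of the 24 overlaps would be 4.17%. At 31 to 37 nt such pairs made up 0.549% in Tdrkh-/- and 3.03% in Tdrkh+/-. The most abundant antisense read, printed above for mt-Nd4, had 31 reads in Tdrkh-/- and 11 in Tdrkh+/-. The antisense exchange was 1.43 (1.10 to 1.87), on 479 long and 164 short reads in Tdrkh-/- against 324 and 159 in Tdrkh+/-.

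The rRNA difference came mostly from the first base of mt-Rnr2. Reads that began there numbered 0 in Tdrkh-/- and 867 in Tdrkh+/-, at least 304-fold lower against a floor of 3 reads per library, and ran from 19 to 40 nt in Tdrkh+/-. With 1 substitution allowed, the same end had a further 2 reads in Tdrkh-/- and 98 in Tdrkh+/-. The 21-nt sequence printed above had 0 reads in Tdrkh-/- and 248 in Tdrkh+/-. Without this end the rRNA ratio was 0.782 instead of 0.102. mt-Rnr1, the small-subunit rRNA, had 49 reads in Tdrkh-/- and 102 in Tdrkh+/-, with the ratio at 0.457 (0.318 to 0.648), of which 0 and 54 began at base 160 and 21 and 21 at base 159. Of the 73 rRNA sequences, 2 were in both libraries, or 2.74%, beside 4.97% of all sequences. These carried 20.6% of rRNA reads in Tdrkh-/- and 1.505% in Tdrkh+/-, beside 57.2% and 51.3% of reads over all sequences. The rRNA exchange of 2.24 (1.27 to 3.89) rested on 28 long and 45 short reads in Tdrkh-/- against 91 and 327 in Tdrkh+/-, and with each distinct sequence counted once it was 0.595.

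tRNA fragments were concentrated in a few places, most of them starting near the middle of the tRNA. mt-Tl1, a leucine tRNA, had 205 reads on the sense strand in Tdrkh-/- and 230 in Tdrkh+/-, with the ratio at 0.847 (0.698 to 1.03), and all but 17 of them began at base 30. The mt-Tl1 sequence printed above had 130 reads in Tdrkh-/- and 146 in Tdrkh+/-. Most of the others were found in 1 library alone: 5 of 85 tRNA sequences were in both, or 5.88%, near the 4.97% of all sequences. They carried 54.0% of tRNA reads in Tdrkh-/- and 24.4% in Tdrkh+/-, beside 57.2% and 51.3% of reads over all sequences.

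The tRNAs that differed most between the libraries did so at a few 5′ ends. mt-Tv had 6 reads in Tdrkh-/- and 407 in Tdrkh+/-. Among these, 252 began at base 36 and 155 at base 38, with 0 in Tdrkh-/- at either. mt-Tc had 0 reads in Tdrkh-/- and 133 in Tdrkh+/-, all from its first base, and mt-Tp had 0 and 56. mt-Tg ran the other way, with 72 reads in Tdrkh-/- and 0 in Tdrkh+/-, at least 22.8-fold higher. mt-Te had 0 reads in Tdrkh-/- and 37 in Tdrkh+/-, and mt-Tm had 51 and 26, of which 34 and 0 began at base 11. mt-Tq had 0 reads in Tdrkh-/- and 13 in Tdrkh+/-. The exchange over all tRNAs, 33.4 (16.3 to 79.3), rested on 8 short reads in Tdrkh-/- against 432 in Tdrkh+/-. Most of these 432 were from mt-Tv, with 283, and mt-Tc, with 104, and both had 0 short reads in Tdrkh-/-. Long reads in Tdrkh-/- were mostly from mt-Tl1, with 132, and mt-Tg, with 66, against 150 and 0 in Tdrkh+/-. This value thus compared different tRNAs. No tRNA had enough reads in both libraries for the count of single genes above. The exchange of mt-Tl1 was 2.64 (0.461 to 27.1), on 2 and 6 short reads.

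Reads ending in added C, CC or CCA, as on processed tRNAs, were more numerous than those ending inside the annotated tRNA. They numbered 1647 in Tdrkh-/- and 3633 in Tdrkh+/-, with the ratio at 0.431 (0.406 to 0.457), and came from 17 of the 22 genes. CC was the most common ending, with 990 reads in Tdrkh-/- and 2643 in Tdrkh+/-, and the full CCA had 155 and 287. After the 3′ ends of mt-Tv, mt-Tg, mt-Te and mt-Th the chromosome continues with A, so the added C is not encoded there. After mt-Tk the next base lies outside the annotated genes, and a single C could be encoded.

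mt-Tv held most of the difference here too. With added bases it had 567 reads in Tdrkh-/- and 2375 in Tdrkh+/-, with the ratio at 0.227 (0.207 to 0.249). Without it, reads with added bases numbered 1080 in Tdrkh-/- and 1258 in Tdrkh+/-, and the ratio was 0.816 (0.752 to 0.886). A second one, the lysine tRNA mt-Tk, had 299 reads in Tdrkh-/- and 508 in Tdrkh+/-, with the ratio at 0.560 (0.483 to 0.647). mt-Tg, with 333 and 332 reads, and mt-Te, with 288 and 211, had ratios of 0.953 (0.817 to 1.11) and 1.30 (1.08 to 1.56), so the reads in Tdrkh-/- alone of mt-Tg and in Tdrkh+/- alone of mt-Te were not matched by such a gap here. Of the 6 genes with at least 50 such reads, 1 was at least 2-fold lower in Tdrkh-/-, 5 lay within 2-fold and 0 were higher. Over all genes the shares were 12.8% lower and 15% higher, counted on exact sense reads. Their exchange was 4.73 (3.27 to 7.02) over all genes, on 34 short reads in Tdrkh-/- against 418 in Tdrkh+/-.

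**Figure D5:**
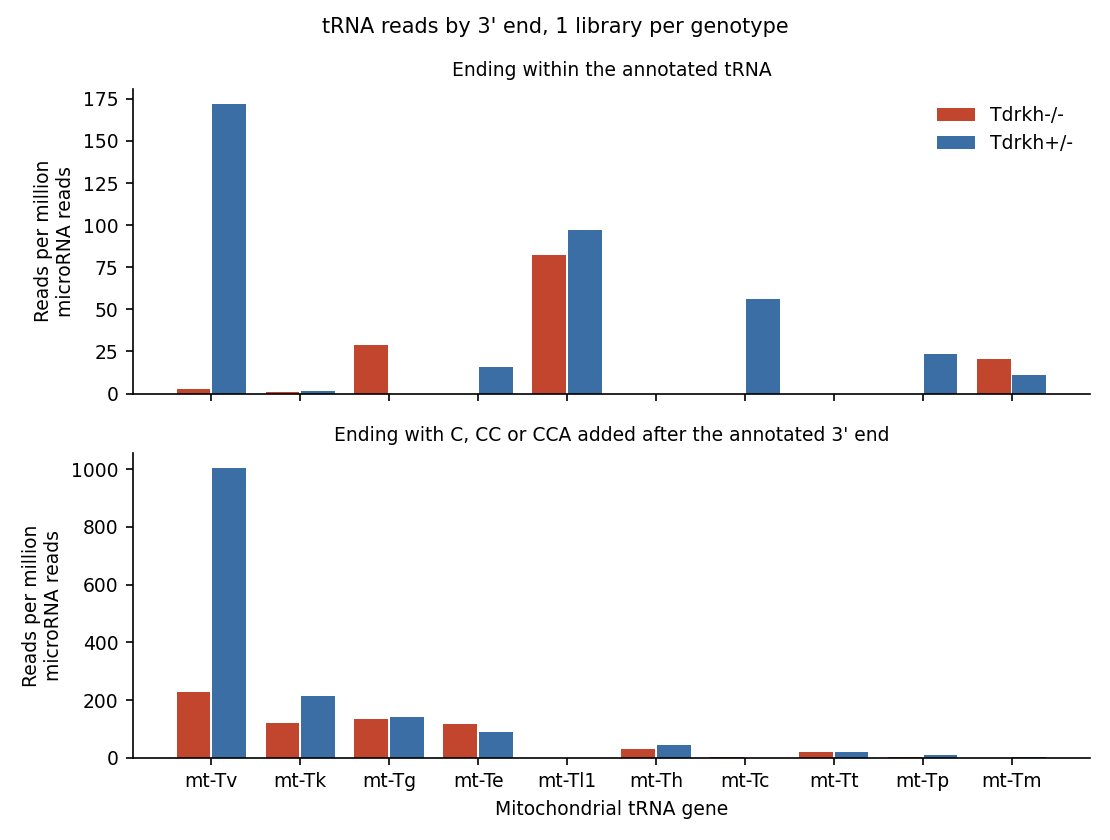
Reads per 1000000 microRNA reads of the 10 mitochondrial tRNA genes with at least 50 reads of either kind, ending within the annotated tRNA (top) or with C, CC or CCA added (bottom), Tdrkh-/- left and Tdrkh+/- right in each pair, 1 library each. mt-Tv is lower in Tdrkh-/- in both panels, while mt-Tg and mt-Te stand at like heights with added bases.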

How the data were processed

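For each genotype, RNA of 5 pooled pairs of testes was cut from a gel at 15 to 40 nt, and an Illumina small RNA kit and a Genome Analyzer II were used, per the labels' protocols. The deposited values are raw counts of reads per distinct sequence, 1 table per library, which the authors made; they held sequences of 18 to 40 nt. Bowtie and the build mm9 were used, per the submitters' processing notes. Their versions, and any trimming or filtering, were not given in the sources used here.

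No genome sequence was read. Each sequence was matched exactly to both strands of the transcripts of GENCODE M21 (GRCm38). Tools were Python 3.11.15, Numba 0.67.0, NumPy 2.4.6, pandas 2.3.3, SciPy 1.17.1 and, for figures, Matplotlib 3.10.9. Added C, CC or CCA ends, 1 substitution and borders between neighbouring genes were searched apart. The scale was the number of reads of up to 25 nt that lie in microRNA hairpins. For counts over all genes, a sequence in several genes was split evenly between them, and mitochondrial genes were given every read that matches them. Ratios carry exact conditional binomial intervals and shares Wilson intervals, at 95%. A ratio with a 0 used a floor of 3 counts per library in its place and is a bound, and no ratio was taken with both counts at or under 3. No test was run, as each genotype has 1 library.

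Named were both rRNAs, the most abundant mRNAs and tRNAs, mt-Nd6, the highest and lowest ratios and the leading antisense genes. The members, gene lists and windows were chosen with earlier results of these data known. The matcher was tested on 300 sequences by plain string search, and 0 strands differed. Level ratios were also tested on simulated data (18093 genes with Poisson counts): 99 of 100 genes changed 4-fold, 2 of 100 changed 1.5-fold and 18 unchanged genes passed 2-fold. The simulated counts held no repeated copies of a molecule, so they do not show how often such copies carry an unchanged gene past 2-fold. The alternatives were to count each distinct sequence 1 time, to leave out sequences read once or shared with nuclear genes, narrower windows, other scales, minimums of 10 and 200 reads and tRNA reads with added bases, and, chosen after seeing the data, the most abundant 5′ end or sequences in 1 library alone left out.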

Additional observations from a re-analysis of the deposited data

Results flagged for a closer look

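Reads that cross the border of neighbouring mitochondrial genes stood outside the comparisons above and were more frequent in Tdrkh-/- than in Tdrkh+/-. There were 50 in Tdrkh-/- and 14 in Tdrkh+/-, with the ratio at 3.39 (1.85 to 6.65) per microRNA read, from 20 distinct sequences. The border of mt-Rnr2 and mt-Tl1 had 18 in Tdrkh-/- and 1 in Tdrkh+/-, and that of mt-Nd2 and mt-Tw had 11 and 2. At the border of mt-Tv and mt-Rnr2 there were 6 and 4, a ratio of 1.43 (0.338 to 6.87). At that of mt-Tl2 and mt-Nd5 there were 0 and 3. The remaining borders had few reads and differed in direction. The part of the unlike reads per distinct sequence in this difference was not tested.

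Reads 1 substitution away from a mitochondrial mRNA were also outside the comparisons and above the level of the Tdrkh+/- library. They numbered 3410 in Tdrkh-/- and 2894 in Tdrkh+/-, with the ratio at 1.12 (1.07 to 1.18) per microRNA read, which is 24.1% and 23.2% of the exactly matching reads in that order.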

How the results depend on the processing

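All values here are log2 ratios of Tdrkh-/- to Tdrkh+/- unless named as numbers of genes; 25 of 58 alternative values stayed within the counting interval of the ratio reported or, for numbers of genes, within 1.5 times of the number reported. With each distinct sequence counted once, the sense levels were -0.44 for mRNAs, -1.07 for rRNAs and -1.15 for tRNAs, and the antisense level was -0.44. The exchange was then 0.0598 for mRNAs, -0.75 for rRNAs (reversed from 1.16) and 2.01 for tRNAs. By that count 0 genes were at least 2-fold higher and 0 lower, among 13 genes counted, all mRNAs. No rRNA or tRNA gene reached the minimum, so the genes past 2-fold above could not be called. Without sequences read once, the mRNA level was 0.27, the antisense level 0.68 and 2 genes were higher. Without sequences shared with a nuclear gene the mRNA level was 0.0639. Windows of 33 to 36 and 26 to 28 nt gave an rRNA exchange of -0.31, reversed, and no value for tRNAs. Per read listed, the levels were -0.32 for mRNAs, -3.72 for rRNAs, -1.89 for tRNAs and -0.12 antisense. Per read of nuclear structural RNA, they were -1.04, -4.44, -2.61 and -0.84 in that order, with 14 genes lower and no background on that scale. The shifts follow from the scales, -0.42 and -1.14, and are the same for every gene. A minimum of 200 reads left 0 genes higher and 2 lower, with fewer genes counted. Adding tRNA reads with C, CC or CCA gave a tRNA level of -1.26 and exchange of 3.13. The following were chosen after seeing the data. Without the most abundant 5′ end, the level was -0.35 for rRNAs and -2.16 for tRNAs. Without sequences in 1 library alone, the level was 0.44 for mRNAs, 0.48 for rRNAs (reversed), -0.31 for tRNAs and 0.89 antisense, and rRNA and tRNA exchange had no value. Where no construction is named, the cause was not tested. No paired analysis was possible because each genotype has 1 library. Depth limits the rRNAs and tRNAs most, with 107 and 348 sense reads in Tdrkh-/-.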

Other observations

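Reads near the rRNAs and tRNAs with 1 substitution were also scarcer in Tdrkh-/-: 32 in Tdrkh-/- and 121 in Tdrkh+/- for rRNAs, and 101 and 222 for tRNAs, or 0.251 (0.165 to 0.374) and 0.432 (0.338 to 0.550) per microRNA read. The tRNA ratio lay near the 0.363 of exact reads, and the rRNA ratio was above the 0.102 of exact reads, with intervals that do not overlap. As shares of exact reads they were 29.9% in Tdrkh-/- and 12.1% in Tdrkh+/- for rRNAs, and 29.0% and 24.4% for tRNAs.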
